A study of Mus musculus with 8 samples.

Results

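The nuclear-encoded subunits of respiratory complexes III, IV and V were described in injured mouse pancreatic acinar cells with and without OCA. Members were taken by gene symbol: Cyc1 and the Uqcr genes for complex III, the genes of cytochrome c oxidase subunits 4 to 8 for complex IV, and the Atp5 genes for complex V, the ATP synthase, with pseudogene rows left out. The rule found 44 of the 54427 listed genes, 9 for complex III, 18 for complex IV and 17 for complex V. The rule itself reads symbols only, but the members were chosen with earlier results of these data known. The symbol rule also takes Atp5s, coupling factor S, which is not a structural subunit, and it passes over Usmg5, a small ATP synthase subunit listed under an older name, which is given with the related genes.

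RNA sequencing gave 8 libraries of primary pancreatic acinar cells from wild-type (WT) mice, 4 titled AP and 4 titled AP_OCA. Every group was injured with CCK, cholecystokinin octapeptide, at 1 µM over 6 h. CCK is a hormone that stimulates acinar secretion and is harmful in excess. OCA usually stands for obeticholic acid, which activates FXR, the nuclear receptor for bile acids. The treatment text names OCA at 2.5 µM, speaks of increasing concentrations and is identical for all 8 libraries, so that AP received none rests on the titles. The labels do not say whether replicates came from separate animals or preparations, so every p-value measures the spread between these samples, which may be technical. The question put to the data is how transcripts of CCK-injured cells differ once OCA is present.

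Complex III passes electrons from ubiquinol to cytochrome c, complex IV passes them from cytochrome c to oxygen, and both pump protons across the inner mitochondrial membrane. Complex V lets the protons flow back and makes ATP from ADP with that energy. Each complex joins large catalytic subunits with many small accessory proteins, and a few core subunits are encoded by mitochondrial DNA. Acinar cells spend much ATP on protein synthesis, calcium pumping and secretion, and high CCK is known to disturb their mitochondria.

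Levels are in CPM, here the deposited value taken back from its log2 scale and set to a sum of 1000000 per library. Because the authors' libraries share 1 distribution, a CPM value ranks a gene within it rather than giving its fraction of the reads, whose totals are unknown. Between 15394 and 16640 genes lay above 0 in 7 libraries. AP_OCA replicate 2 held 21010 and correlated with the other 7 at 0.561 to 0.635 over 11311 genes (Pearson's r across genes, as a description), where the others correlated at 0.873 to 0.981. Its summed immune markers reached 13240 CPM, against 75.7 to 178 elsewhere, and its summed islet markers were at 9.09 CPM, against 513 to 2162. Results are therefore given over all 8 libraries and over the 7 without AP_OCA replicate 2. Acinar markers summed to 387100 to 393300 CPM in AP and to 336500 to 381100 in AP_OCA replicates 1, 3 and 4. They summed to 310000 in AP_OCA replicate 2, and all 12 were above 0 in every library. Abundant enzymes dominate this sum, and Ctrb1 was at 116500 CPM in all 8 libraries. In AP_OCA replicate 2 Pnlip and Cpa1 stayed within the range of the other 7, and Cel and Cela2a lay level with their lowest. Bhlha15 was at 5.052 CPM there, against 63.12 to 120.3 elsewhere. Rbpjl was at 5.445, against 71.62 to 107.2, and Amy2a5 at 352.8, against 1770 to 2954. Ptf1a and Nr5a2 also lay below all the other 7. The sum hides these lower values.

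Most subunit transcripts lay higher in AP_OCA than in AP, mainly those of small accessory subunits, while the large catalytic subunits of complexes III and V did not follow. Of the 44 genes, 36 had a mean of at least 1 CPM and were tested, 9 of complex III, 10 of complex IV and 17 of complex V. Over all 8 libraries no subunit passed an adjusted p of 0.05 (limma, Benjamini-Hochberg over all genes tested). The same held for 0% of the 11311 genes tested, and the smallest adjusted p of a subunit was 0.26. At an unadjusted p under 0.05, 24 of 36 subunits were higher and 0 lower, where 7.31% of all genes were higher and 8.87% lower. In 20 subunits every AP_OCA library lay above every AP library and in 2 every one lay below, against 6.75% and 8.57% of all genes. The fold change was above 0 for 31 of 36 subunits, against 49.1% of all genes, and the subunits' median log2 fold change was 0.80, against -0.01.

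Over the 7 libraries 4 of 36 subunits rose and 0 fell (limma, adjusted p under 0.05), where 2.44% of 10894 genes passed, 0.854% higher and 1.59% lower. The 4 were Uqcrq of complex III, Cox6c of complex IV, and Atp5o and Atp5mpl of complex V. At an unadjusted p under 0.05, 26 subunits were higher and 0 lower, against 11.8% and 13.9% of all genes. In 21 subunits each of AP_OCA replicates 1, 3 and 4 lay above every AP library and in 2 each lay below, against 11.1% and 12.1% of all genes. The median log2 fold change was 0.65 over the subunits and -0.00 over all genes, with 0.72 for complex III, 0.68 for complex IV and 0.62 for complex V. That order turned around when each library's trend with transcript length and GC content was removed. The 37 Nduf subunit genes of complex I, taken for comparison, had a median of 0.70 with 1 past the threshold, and 37 of 37 were above 0. The 4 calls rest on a narrow margin, with adjusted p from 0.0486 to 0.0494. In the fits that left out 1 more library, 0 subunits passed without any of AP replicates 1 to 4 or AP_OCA replicates 3 and 4, and 21 passed without AP_OCA replicate 1. The whole table moved likewise: 8.92% of all genes passed without AP_OCA replicate 1, 1.1% without AP_OCA replicate 4 and 0.0644% to 0.128% without any of the other 5.

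The 4 AP_OCA libraries were not alike. As log2 distance from the AP mean, the median subunit stood at 0.24 in AP_OCA replicate 1, 0.55 in replicate 3 and 0.99 in replicate 4, and at 1.05 in replicate 2, while the AP libraries stood between -0.09 and 0.15. AP_OCA replicate 1 lay above the highest AP library for 25 of 36 subunits, replicate 3 for 30, replicate 4 for 29 and replicate 2 for 28, where 23.4%, 25.9%, 32.5% and 39.1% of all genes did. AP_OCA replicate 4 was the highest of the 7 libraries for 29 subunits. Without it the members' median over the 6 libraries left was 0.41. In AP_OCA replicate 2 all 10 tested complex IV genes were above the highest AP library, with a median of 1.39. The complex III median there was 0.11, with 5 of 9 genes above the highest AP library and 3 below the lowest, where 43.9% of all genes lay below. The difference between the complexes was not tested.

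**Figure D1:**
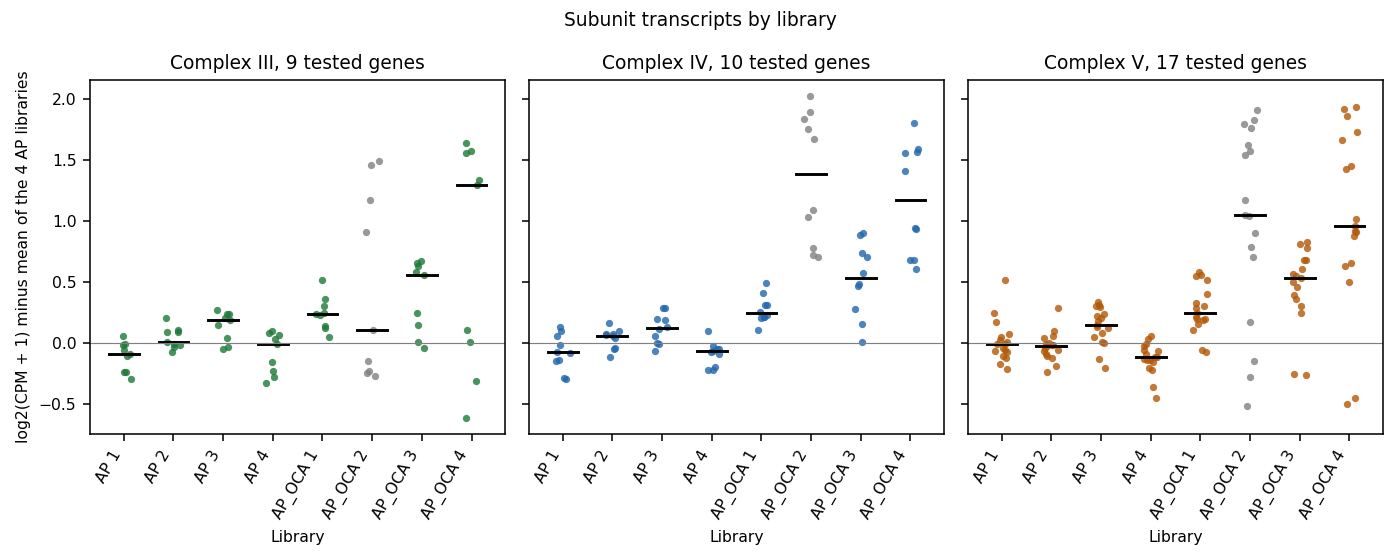
Each point is a tested subunit gene, as log2(CPM + 1) minus its mean over the 4 AP libraries (y axis) in each library (x axis), by complex, with the median as a black bar and AP_OCA replicate 2 in grey. The complex medians lie near 0 in the AP libraries and reach 1.30, 1.18 and 0.96 in AP_OCA replicate 4 for complexes III, IV and V.

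In the plot of subunits by library the spread within a library is wide. A few complex III and complex V points stay at or under 0 in AP_OCA replicate 4 while others exceed 1. Those low points are the catalytic and core subunits described with their complexes.

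Transcript length moved with the groups. Across 11251 annotated genes, Spearman's rho between a gene's deviation from its mean and its transcript length was 0.38, 0.25, -0.08 and 0.40 in AP replicates 1 to 4. In AP_OCA replicates 1 to 4 it was -0.13, -0.13, -0.19 and -0.27. For GC content the libraries overlapped, at -0.07, -0.04, 0.64 and 0.08 in AP replicates 1 to 4 and -0.06, -0.17, -0.22 and -0.35 in AP_OCA replicates 1 to 4, with AP replicate 3 apart. With the tested genes cut into 5 equal groups by length, the shortest group had a median log2 fold change of 0.30 over the 7 libraries and the longest -0.13, and 30 of the 36 subunits belong to the shortest. Among the subunits themselves rho between fold change and length was -0.57 over the 7 libraries and -0.69 over all 8 (n = 36, a description across genes that share the same libraries). The 24 tested subunits of at most 1000 bases had a median of 0.81 and the 12 longer ones 0.34. When each library's trend with length and GC content was removed, the subunits' median over the 7 libraries was 0.25, with 0.06 for complex III, 0.19 for complex IV and 0.34 for complex V. Then 29 of 36 were above 0, against 50.1% of all genes, 13 were higher at an unadjusted p under 0.05, against 9.60%, and 0 passed the threshold, against 1.13%. The median of the complex I genes then was 0.33, with 0 past the threshold. Adjusted p after that removal was 0.0789 for Uqcrq and Atp5o, 0.152 for Cox6c and 0.461 for Atp5mpl, and the lowest of any subunit was 0.0763, for Atp5g1. Whether the length trend comes from RNA quality, library making or the cells was not tested.

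**Figure D2:**
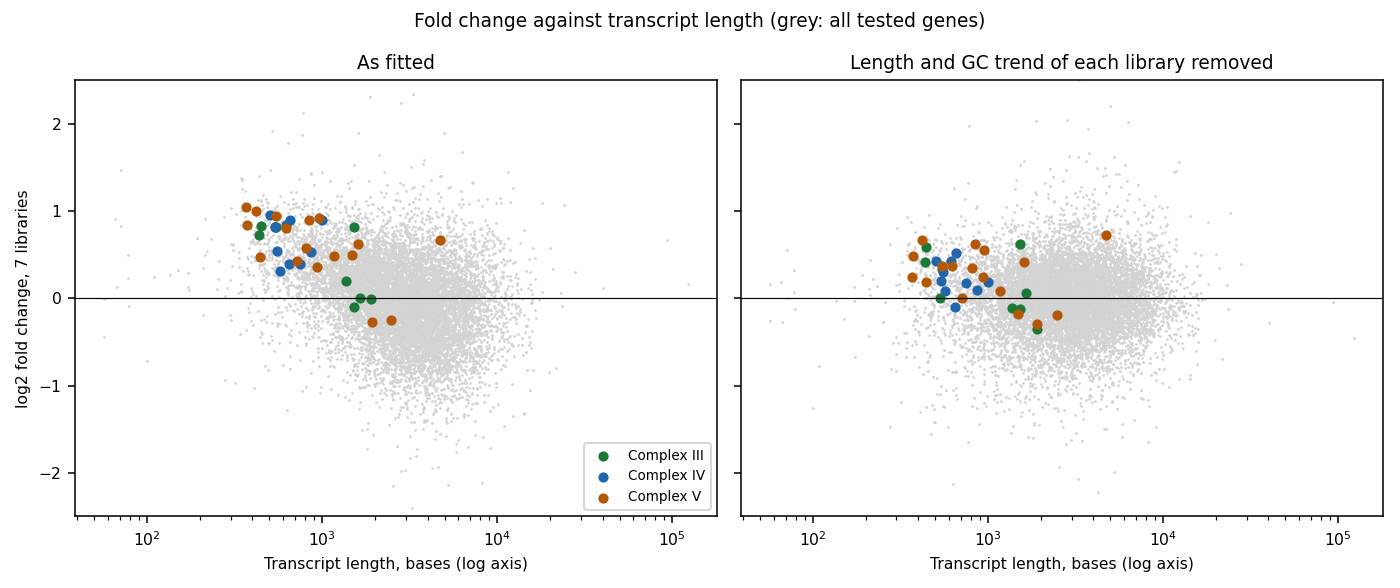
log2 fold change over the 7 libraries (y axis) against transcript length in bases (x axis, log scale), as fitted and after each library's trend with length and GC content was removed. Grey points are all genes tested and coloured points the subunits, whose median is 0.65 as fitted and 0.25 after removal.

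The plot against transcript length shows the subunits at its left edge, within a cloud of short genes that itself sits above 0. After removal the cloud is level and most of the subunits remain in its upper part, but a length trend among the subunits was left. Their rho between fold change and length was then -0.356 over the 7 libraries and -0.485 over all 8. Over all genes it was -0.024 and -0.011. Against the length of each gene's shortest main transcript, the subunits' rho over the 7 libraries was -0.665 as fitted and -0.633 after removal. The long point at the right is Atp5g1, whose chosen transcript model has 4715 bases. The annotation also lists a main transcript of 596 bases for it, and with the shortest main transcript of every gene the members' median after removal was 0.23. Uqcrq and Atp5o have shorter main transcripts too, of 405 and 530 bases, against 1521 and 838 in the chosen models. With the shortest, the fold changes after removal over all 8 libraries were 0.253 for Atp5g1, 0.372 for Uqcrq and 0.486 for Atp5o. With the chosen models they were 0.619, 0.397 and 0.632.

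Complex III divided by role. The 5 small accessory subunits, which surround the catalytic core, had log2 fold changes of 0.72 to 0.83 over the 7 libraries, and 1 of them rose. The 4 core and redox subunits had -0.10 to 0.20, and 0 passed.

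Uqcrq, a small subunit that contacts the mitochondrially encoded cytochrome b (mm10 chromosome 11, 53427922 to 53430831, minus strand), was at 75.0, 94.2, 91.0 and 94.5 CPM in AP replicates 1 to 4. It was at 127, 138 and 218 CPM in AP_OCA replicates 1, 3 and 4 and at 95.1 in AP_OCA replicate 2. The groups did not overlap, although AP_OCA replicate 2 lay level with the upper AP libraries. Its log2 fold change was 0.82 ± 0.20 (SE, adjusted p = 0.0494, limma) over the 7 libraries and 0.64 ± 0.29 (adjusted p = 0.310) over all 8.

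Uqcr11, another small subunit, was at 13.6 to 18.9 CPM in AP and at 22.0, 32.8, 25.4 and 52.3 CPM in AP_OCA replicates 1 to 4. Uqcrb, which binds near the ubiquinone site, was at 8.73 to 9.50 CPM in AP and at 10.8, 21.6, 15.01 and 28.5 in AP_OCA. Both had groups that did not overlap and missed the threshold, at 0.83 ± 0.26 (SE, adjusted p = 0.0818, limma) and 0.82 ± 0.27 (adjusted p = 0.0873) over the 7 libraries. Uqcrh, the hinge protein that helps cytochrome c dock, was at 31.0 to 45.8 CPM in AP and at 41.8, 105, 59.96 and 120 CPM in AP_OCA. Its groups overlapped through AP_OCA replicate 1.

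Cyc1, the cytochrome that hands electrons to cytochrome c, was at 39.6, 44.6, 55.5 and 49.3 CPM in AP and at 58.4, 38.7, 47.3 and 30.4 CPM in AP_OCA. Its groups overlapped on both sides, with a log2 fold change of -0.10 ± 0.22 (SE) over the 7 libraries (adjusted p = 0.813, limma). Uqcrc1, a core protein, was at 74.8, 73.7, 86.4 and 67.7 CPM in AP and at 78.3, 63.5, 73.2 and 75.9 in AP_OCA. Its log2 fold change was 0.01 ± 0.16 (SE, adjusted p = 0.979, limma). Both lie above 1000 bases in transcript length, as do all 4 core and redox subunits. After the length and GC trend was removed these 4 had a median of -0.11 and the accessory subunits 0.41. The roles then overlapped, since Uqcrb was at 0.01 and Uqcrc1 at 0.06.

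All 10 common subunits of complex IV had a fold change above 0 in both fits, and 1 rose over the 7 libraries. Values over the 7 libraries ran from 0.32 for Cox6a1 to 0.96 for Cox6c. Of the 10, 7 had groups that did not overlap, where over the 7 libraries 11.1% of all genes lay higher without overlap. These genes are short, with a median transcript length of 631.5 bases. With the length and GC trend removed their median over the 7 libraries was 0.19, with 9 above 0 and 0 past the threshold.

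Cox6c, a small subunit spanning the inner membrane (mm10 chromosome 15, 35925886 to 35938246, minus strand), was at 18.01, 19.9, 19.8 and 18.1 CPM in AP. It was at 25.5, 36.3 and 58.3 CPM in AP_OCA replicates 1, 3 and 4 and at 66.5 in replicate 2. Every AP_OCA library lay above every AP library. The log2 fold change was 0.96 ± 0.24 (SE, adjusted p = 0.0490, limma) over the 7 libraries and 1.16 ± 0.30 (adjusted p = 0.260) over all 8. Its exons share 250 bases with Vps13b on the opposite strand, but Vps13b did not exceed 6.23 CPM in any library.

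The next lowest adjusted p-values in complex IV were those of the small subunits Cox7c and Cox7b. Cox7c was at 24.2 to 30.0 CPM in AP and at 32.8, 57.1, 43.5 and 71.2 CPM in AP_OCA replicates 1 to 4. Cox7b, on chromosome X, was at 17.3 to 19.9 CPM in AP and at 21.7, 39.1, 35.1 and 57.9 in AP_OCA. Neither pair of groups overlapped, and the adjusted p over the 7 libraries was 0.0637 for Cox7c and 0.0675 for Cox7b (limma).

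Cox7a2 and Cox8a, common forms of subunits 7A and 8, also had groups that did not overlap. Cox7a2 was at 16.5 to 21.3 CPM in AP and at 24.2, 64.0, 29.4 and 70.0 CPM in AP_OCA. Cox8a was at 30.6 to 33.9 CPM in AP and at 36.6, 121, 44.8 and 61.5 in AP_OCA. Cox8a was thus highest in AP_OCA replicate 2, and its log2 fold change was 0.88 over all 8 libraries and 0.54 over 7. Cox6b1, which faces the side where cytochrome c binds, had overlapping groups, at 21.4 to 30.7 CPM in AP and 29.6, 92.1, 42.3 and 75.5 in AP_OCA.

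The most abundant complex IV genes had the lowest fold changes, but by a narrow margin. Cox5a, with an AP mean of 16.95 CPM, had 0.395 over the 7 libraries, against 0.394 for Cox4i1. Cox4i1, the common form of the regulatory subunit 4, was at 87.6, 97.5, 106 and 80.8 CPM in AP and at 108, 152, 113 and 149 in AP_OCA, with a log2 fold change of 0.39 ± 0.18 (SE, adjusted p = 0.182, limma) over the 7 libraries. Cox6a1 was at 63.6 to 79.3 CPM in AP and at 84.3, 117, 71.1 and 114 in AP_OCA, with overlapping groups. Per kilobase of transcript model, the AP means were 125 CPM for Cox4i1 and 124 for Cox6a1, above the 37.7 of Cox6c, a comparison of levels that depends on the model chosen.

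The 8 tissue-restricted forms were at or near 0, which placed all of them under the 1 CPM filter. The heart and muscle forms Cox6a2, Cox7a1 and Cox8b did not exceed 0.640, 0.450 and 0.306 CPM, and the testis forms Cox6b2 and Cox7b2 did not exceed 0.494 and 0.129. Cox4i2, a form of subunit 4 known from lung, reached 0.947 CPM in AP_OCA replicate 2, and Cox6c2 reached 0.312. Cox8c, a testis form, was listed at 0 in all 8 libraries. A gene counted at 0 could still have had up to 3 counts, for counting error only. The step read as 3 counts lay at 0.206 to 0.313 CPM in the 7 libraries. In AP_OCA replicate 2 it lay at 0.000455 CPM. That library had 65 distinct steps up to 1 CPM, against 9 to 14 elsewhere, so no count limit is read there. No direction is read from these values.

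In complex V, 2 of 17 genes rose over the 7 libraries, 1 of the peripheral stalk and 1 of the membrane part. By role the median log2 fold change was 0.93 for the 4 small membrane subunits, 0.72 for the 4 peripheral stalk subunits, 0.48 for the 3 c ring genes and 0.36 for the 5 subunits of the catalytic F1 head, which ranged from -0.28 to 1.00. With the length and GC trend removed these medians were 0.43, 0.40, 0.19 and 0.09.

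Atp5o encodes OSCP, the stalk subunit that holds the F1 head in place (mm10 chromosome 16, 91925214 to 91931687, minus strand). It was at 20.1, 18.8, 22.0 and 19.2 CPM in AP, at 29.8, 32.8 and 56.5 in AP_OCA replicates 1, 3 and 4 and at 46.3 in replicate 2. The groups did not overlap. The log2 fold change was 0.90 ± 0.22 (SE, adjusted p = 0.0486, limma) over the 7 libraries and 0.97 ± 0.24 (adjusted p = 0.260) over all 8. The annotation holds another entry of the same name that shares 243 exon bases with it, so how the authors' counting split them is uncertain.

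Atp5mpl encodes a small proteolipid of the membrane part (mm10 chromosome 12, 111961375 to 111966977, minus strand). It was at 12.4, 11.7, 14.5 and 10.3 CPM in AP, at 18.7, 22.0 and 42.6 in AP_OCA replicates 1, 3 and 4 and at 45.6 in replicate 2. Every AP_OCA library lay above every AP library. The log2 fold change was 1.04 ± 0.26 (SE, adjusted p = 0.0488, limma) over the 7 libraries, the highest of any subunit in both fits, and 1.24 (adjusted p = 0.260) over all 8. With the length and GC trend removed it was 0.25.

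Atp5j2, subunit f of the membrane part, was at 24.8 to 28.3 CPM in AP and at 39.9, 82.0, 39.8 and 87.3 CPM in AP_OCA replicates 1 to 4. Its groups did not overlap, and it missed the threshold narrowly over the 7 libraries (log2 fold change 0.93 ± 0.25 (SE), adjusted p = 0.0576, limma).

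The c ring, the rotor through which protons pass, is built from 1 protein encoded by Atp5g1, Atp5g2 and Atp5g3. Atp5g1 was at 31.0, 29.2, 39.1 and 34.6 CPM in AP and at 48.2, 37.8, 46.3 and 68.4 CPM in AP_OCA. Its groups overlapped only through AP_OCA replicate 2. Atp5g2 was at 31.4 to 44.0 CPM in AP and at 40.6, 105, 45.8 and 66.0 in AP_OCA, and Atp5g3 at 54.9 to 63.0 in AP and 66.8, 94.3, 76.1 and 91.4 in AP_OCA. Atp5g1 gave 24.0% to 31.0% of the summed CPM of the 3 genes in the 7 libraries and 15.9% in AP_OCA replicate 2. Atp5g2 gave 26.1% to 30.1% and 44.3%. The makeup of the c ring transcripts thus set AP_OCA replicate 2 apart, while the other 7 libraries stayed within those ranges. None of the 3 passed, with adjusted p of 0.0646, 0.158 and 0.140 over the 7 libraries (limma).

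Atp5a1 and Atp5b, the alpha and beta subunits that form the catalytic hexamer of F1, were the only tested subunits whose AP_OCA libraries all lay below all AP libraries. Atp5a1 was at 212, 211, 214 and 212 CPM in AP and at 205, 175, 177 and 155 in AP_OCA. Atp5b was at 308, 314, 337 and 312 CPM in AP and at 302, 222, 266 and 225 in AP_OCA. AP_OCA replicate 1 lay just under the AP range in both. The log2 fold changes over the 7 libraries were -0.25 ± 0.16 (SE, adjusted p = 0.330, limma) and -0.28 ± 0.16 (adjusted p = 0.303), so neither passed. Per kilobase of transcript model Atp5b had the highest AP mean of the 36, 166 CPM, and Atp5a1 had 85.8. With the length and GC trend removed their fold changes were -0.19 and -0.30.

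**Figure D3:**
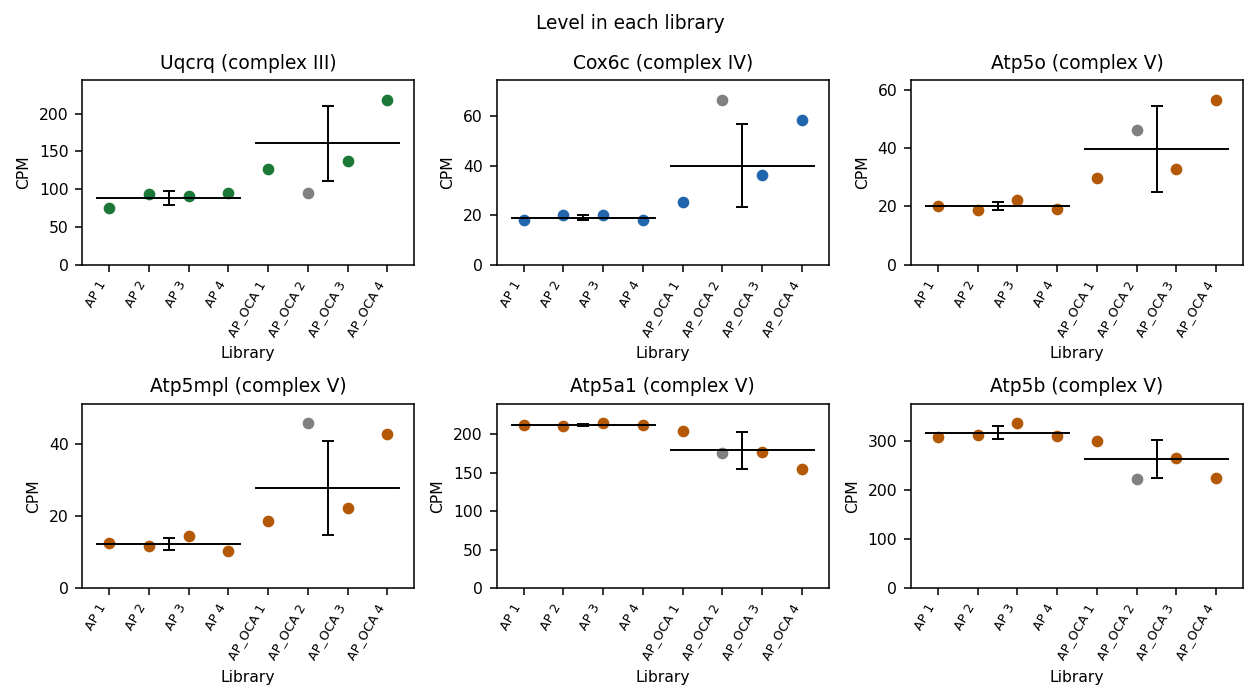
CPM (y axis, from 0) in each library (x axis) for the 4 subunits that rose over the 7 libraries and for Atp5a1 and Atp5b; lines and bars are the mean and SD of the 4 AP libraries and of AP_OCA replicates 1, 3 and 4, and AP_OCA replicate 2 is in grey. Atp5o lies between 18.8 and 22.0 CPM in AP and between 29.8 and 56.5 in AP_OCA, and Atp5b between 308 and 337 in AP and between 222 and 302 in AP_OCA.

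The plot of levels by library shows AP points closer together than AP_OCA points in all 6 genes. AP_OCA replicate 4 is the highest of the 7 libraries in the 4 genes that rose and the lowest in the other 2.

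**Figure D4:**
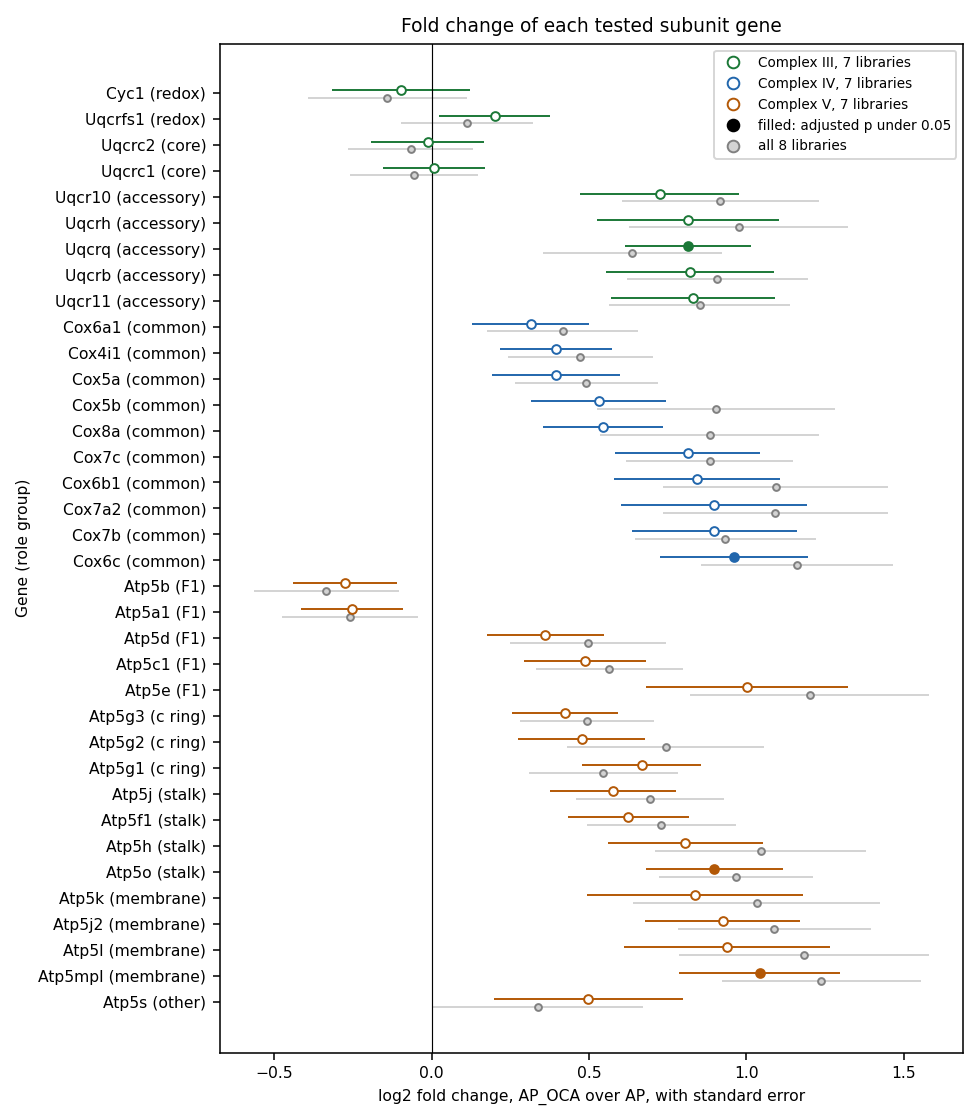
log2 fold change of AP_OCA over AP with its standard error (x axis) for the 36 tested subunits by complex and role (y axis); coloured points are from the 7 libraries, filled where the adjusted p was under 0.05, and grey points are from all 8. The values over the 7 libraries run from -0.28 for Atp5b to 1.04 for Atp5mpl.

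The plot of fold changes by role places the core and redox subunits of complex III near 0 and the alpha and beta subunits of F1 below it. The remaining subunits lie to the right of 0 in both fits.

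The upstream sequences of 5 subunits are shown because respiratory genes are classical targets of NRF1 and of GABP (NRF2), whose elements were looked for here. Windows from 250 bases before to 50 bases after the RefSeq start (GRCm38.p6, the mm10 build) were found for 26 of the 36 tested subunits. Each line gives the 120 bases that end at a start, 5′ to 3′ on the gene's strand, with matches to the NRF1 element (GCGCA, any base, GCGC) or the GABP element CCGGAAG on either strand in capitals. Uqcrh spans chr4:116075071-116075190 and Uqcr11 chr10:80406822-80406941, both on the minus strand. Cox6a1 spans chr5:115348959-115349078 and Atp5e chr2:174464102-174464221, also on the minus strand, and Uqcrc1 spans chr9:108936528-108936647 on the plus strand.
Uqcrh: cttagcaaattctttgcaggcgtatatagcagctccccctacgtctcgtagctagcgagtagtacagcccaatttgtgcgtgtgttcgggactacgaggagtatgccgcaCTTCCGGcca
Uqcr11: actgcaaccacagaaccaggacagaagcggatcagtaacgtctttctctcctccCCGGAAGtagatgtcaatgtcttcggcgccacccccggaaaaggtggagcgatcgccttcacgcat
Cox6a1: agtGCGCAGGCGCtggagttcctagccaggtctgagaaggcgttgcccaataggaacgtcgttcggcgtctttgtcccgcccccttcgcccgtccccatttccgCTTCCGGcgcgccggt
Atp5e: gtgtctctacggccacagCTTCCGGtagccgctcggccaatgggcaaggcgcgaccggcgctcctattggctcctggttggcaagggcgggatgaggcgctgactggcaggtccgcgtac
Uqcrc1: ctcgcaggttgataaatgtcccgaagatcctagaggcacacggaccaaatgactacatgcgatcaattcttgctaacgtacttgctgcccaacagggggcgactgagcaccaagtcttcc
The 2 accessory subunits of complex III, the complex IV subunit and the F1 epsilon subunit Atp5e each hold a GABP match in these stretches, Cox6a1 also an NRF1 match, and the core subunit Uqcrc1 neither. Uqcrc1 has NRF1 matches within the 50 bases after its start. No stated rule chose these 5, so they do not represent the subunits or a contrast between roles. The accessory subunit Uqcr10 and the complex IV subunits Cox5a, Cox5b, Cox7a2, Cox7b and Cox7c held neither match in their whole windows.

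Over the whole windows, NRF1 matches were in 8 of 26 subunits (30.8%), against 11.8% of the 8328 tested genes with a window and 5.19% of all 27025 genes with one. GABP matches were in 10 of 26 (38.5%), against 20.6% and 9.93%. The YY1 element AANATGGCG was in 3 of 26 (11.5%), against 6.44% and 2.76%. No match of one element overlapped another. Of the 4 subunits that rose, Atp5o alone had a window, with an NRF1 match after its start. Matches stood upstream of genes with fold changes near 0.3, such as Cox6a1, and near 1, such as Atp5e. A match describes letters only.

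The partners of these subunits gave few calls. Over the 7 libraries 0 of 5 tested complex III assembly genes, 0 of 19 complex IV assembly genes and 1 of 6 complex V assembly and inhibitor genes passed, with medians of 0.35, 0.14 and 0.29. The 1 was Atpif1, the inhibitor that binds F1 when ATP synthase runs in reverse. It was at 3.67, 4.96, 5.56 and 5.97 CPM in AP and at 9.84, 15.5, 9.09 and 15.7 CPM in AP_OCA, without overlap. Its log2 fold change was 1.03 ± 0.24 (SE, adjusted p = 0.0468, limma). In the fits that left out 1 more library it passed in 1 of 7, that without AP_OCA replicate 1 (adjusted p from 0.0314 to 0.124). With the length and GC trend removed it did not pass. Usmg5 had 0.93 ± 0.32 (SE, adjusted p = 0.103, limma).

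Of the 6 mitochondrially encoded subunits, 5 were tested and 0 passed. The value was 0.52 for mt-Cytb of complex III. For complex IV it was -0.38 for mt-Co1, 1.09 for mt-Co2 and 1.06 for mt-Co3, and for complex V 0.54 for mt-Atp6. Their levels differed widely. Over all 8 libraries mt-Co1 was at 624 to 2053 CPM, mt-Co2 at 2.49 to 16.7 and mt-Co3 at 1.84 to 12.8. The direction turned once transcript length and GC content were corrected for in each library. The median of the 5 genes then went from 0.544 to -0.253 over the 7 libraries, where 2 stayed above 0. Over all 8 it went from 0.395 to -0.572, and 0 were above 0. Of the cytochrome c and supercomplex genes 0 of 5 passed, with Cycs, cytochrome c itself, at 0.75 ± 0.19 (SE, adjusted p = 0.0531, limma), and 0 of 4 complex II genes passed, with a median of 0.15. Of 13 genes used as marks of mitochondrial mass 0 passed, with a median of 0.25.

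Among 9 tested regulators of mitochondrial gene expression 1 fell. Pprc1, a coactivator of NRF1 and GABP, was at 134, 122, 148 and 126 CPM in AP, at 78.5, 79.8 and 63.1 in AP_OCA replicates 1, 3 and 4 and at 15.1 in replicate 2. Its log2 fold change was -0.84 ± 0.17 (SE, adjusted p = 0.0285, limma) over the 7 libraries, and -1.40 (adjusted p = 0.265) over all 8. With the length and GC trend removed it did not pass over the 7 libraries. It passed in 2 of the 7 fits that left out 1 more library, those without AP_OCA replicate 1 or 4, with adjusted p from 0.0200 to 0.0974. The other 8 did not pass. Tfam, which packs mitochondrial DNA, was at 0.65, Gabpa at 0.41, Tfb2m at 0.17, Gabpb1 at 0.06 and Nrf1 at -0.08, while Yy1 was at -0.52, Esrra at -0.54 and Polrmt, the mitochondrial RNA polymerase, at -0.55. At an unadjusted p under 0.05 (limma, 7 libraries), 4 of the 9 regulators were lower and 1 higher, where 13.9% of all genes were lower and 11.8% higher. These 9 had a median transcript length of 3755 bases. All tested genes of 3363 to 4787 bases had a median log2 fold change of -0.14 over the 7 libraries.

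Markers of other cell types also moved with the groups. Over the 7 libraries, summed stellate and fibroblast markers lay at 240 to 306 CPM in AP and 143 to 230 in AP_OCA, and endothelial markers at 118 to 150 and 50.7 to 108. Duct markers lay at 273 to 338 and 374 to 469, adipocyte markers at 12.9 to 33.3 and 27.7 to 87.4, and immune markers at 89.0 to 178 and 75.7 to 114. Of these lists 1 of 10 stellate genes and 1 of 10 endothelial genes fell, and 0 of the 6 tested duct, 0 of the 11 tested immune, 0 of the 10 islet and 0 of the 2 tested adipocyte genes passed. The T cell marker Cd3e was at 0 in all 7 libraries, Myh7 was at 0 in all 8, and muscle markers summed to at most 1.93 CPM in any library. The part of these cells in the subunits' values was not tested, and in bulk RNA fewer cells of a type and less RNA per cell cannot be told apart.

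Sharing of reads limits a few members. Among the tested subunits 12 share exon bases with another gene, mostly on the opposite strand, and no source used here states whether counting used strand. Atp5j, with a lowest value of 17.1 CPM, shares 397 bases with Gabpa, which reached 17.0, and Atp5f1, with a lowest value of 32.5, shares 337 with Wdr77, which reached 29.5. The other opposite-strand partners stayed at or below 10.45 CPM. Pseudogene copies took few reads: of 7 such rows, 4 were at 0 in every library and the highest reached 0.314 CPM.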

How the data were processed

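RNA-seq of 8 libraries, 4 AP and 4 AP_OCA by their titles, was analysed. The deposited table holds log2 values. Their lowest value, -6.64, is the log2 of 0.01, and the maximum is identical and the linear sum nearly so in every column, so the authors' values were read as log2 of a quantile-normalised count-like number plus 0.01. Per the labels, total RNA and a SMARTER kit were used, and the submitters' processing notes name the mm10 build; the aligner, counter and annotation are not given in the sources used here.

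The offset was removed, each library was scaled to 1000000 (CPM), and genes averaging 1 CPM or more entered the test as log2(CPM + 1) with limma 3.58.1 (R 4.3.3; trend, robust moderation), AP_OCA against AP, p-values adjusted by Benjamini-Hochberg at 0.05. Fold changes on this scale understate those of low genes. The plan for counts or linear values was met by the return from log2. Depth is unknown.

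Length and GC content came from GENCODE M21 main transcripts (all 44 members matched); each library's trend was removed with splines of 5 degrees of freedom. Promoters are RefSeq GRCm38.p6. On simulated data of the 7-library comparison (10894 genes) 60% of changes of 1 and 93% of changes of 2 on the log2 scale were recovered, with 7 false calls. For the 8-library comparison (11311 genes) these were 16% and 63%, with 5. The noise was drawn for each gene alone, without shared length or GC trends, and only genes of higher level were changed. The false calls therefore do not cover such trends, and the recovery does not cover low genes.

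The members and lists, and showing AP_OCA replicate 2 apart, were chosen with earlier results of these data known. Members named with values are those past the threshold and the 3 of each complex with the lowest p without AP_OCA replicate 2. Also named are the 2 most abundant, those of highest and lowest fold change, and the c subunit genes. The restricted forms are named with the common forms they replace. Atp5e, Atp5f1, Atp5j and Cox5a were named after their values were seen. Alternatives were other normalisations, filters, pseudocounts, moderation, quality weights, a replicate block, length and GC removal, and each library left out. The shortest main transcript was added after seeing the data.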

Additional observations from a re-analysis of the deposited data

Results flagged for a closer look

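Of the 50 groups of 4 libraries examined by Dixon's test at the 95% level, 1 held a library far from the others. Uqcrq in AP replicate 1 was at 75.0 CPM, with the other AP libraries between 91.0 and 94.5. Chance alone gives such a gap in about 1 of 20 groups.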

How the results depend on the processing

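Over all 8 libraries 0 subunits passed in the reported fit and under the alternatives, except 17 with quality weights per library (where 9.30% of all genes passed) and 4 without AP_OCA replicate 2, so leaving out 1 library gave 0 to 4. Over the 7 libraries the 4 calls were 0 with the deposited log2 values, no filter, a pseudocount of 0.1, limma without trend or robust moderation, and the length and GC trend removed (0 also with the replicate block or the shortest main transcript). They were 22 with quality weights and 8 with the replicate block, where 15.4% and 5.13% of all genes passed, against 2.44% as reported, and leaving out 1 library gave 0 to 21. Median centring, a second quantile normalisation, a minimum of 5 CPM and a pseudocount of 5 each gave the same 4 genes. The causes were not tested. Whether replicate numbers pair the libraries is not known. Correlations of same-numbered deviations were -0.17, 0.03, 0.12 and -0.03, and not every library correlated best with its own number. The AP_OCA deviations were taken from a mean that included AP_OCA replicate 2, so these correlations cannot decide it. The block left the count over all 8 libraries at 0. Signs turned for 3 genes near 0. Over all 8 libraries Cyc1 was 0.092 with quality weights and -0.290 to 0.017 with 1 library left out. Uqcrc1 was 0.038 with quality weights, 0.018 with length and GC removed with or without the block, 0.032 with the shortest transcript, and -0.106 to 0.010 with 1 library left out. Uqcrb was -0.011 with length and GC removed, with or without the block, and -0.00 with the shortest transcript. Over the 7 libraries Cyc1 was 0.089 with quality weights and -0.299 to 0.161 with 1 library left out, Uqcrc1 -0.003 with the block and -0.043 to 0.073 with 1 left out, and Uqcrb -0.056 with length and GC removed and the block. Of the 440 alternative values for named genes over the 7 libraries 356 kept their direction and side of the threshold, 52 no longer passed, 25 newly passed and 7 changed sign. Of the 462 over all 8 libraries the numbers were 434, 0, 17 and 11. Total reads are unknown, so depth limits on low genes rest on the step structure, and none is given for AP_OCA replicate 2.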
